A study of Mus musculus with 36 samples.

Results

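The replication-dependent histone genes encode the core histones H2A, H2B, H3 and H4 and the linker histone H1 in many near-identical copies. They were taken as all gene names of the deposited table that begin with Hist1h, Hist2h, Hist3h or Hist4h and have a value above 0 in at least 3 of the 36 libraries. Of 27562 genes, 67 carried such a name and 66 met the rule. Hist1h2aj was left out, with values above 0 in 2 libraries and a highest value of 5.41 FPKM. Just inside the rule were Hist1h2al and Hist1h2ap, each above 0 in 3 libraries, with highest values of 2.196 and 0.993 FPKM. FPKM, fragments per kilobase of transcript and per 1000000 mapped fragments, is a level per transcript length, and the deposited table holds no other unit.

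The libraries came from lung-shielded chimeras. Male C57BL/6J hosts (CD45.2) were irradiated with the chest shielded, treated with busulfan, and given marrow of CD45.1 donors (B6.SJL-Ptprca Pepcb/BoyJ), so that the lung kept its own host cells. All mice, controls included, carried this chimerism. They then breathed filtered air (FA) or concentrated fine particulate matter (PM2.5) for 4 or 32 weeks. Alveolar macrophages (AΦ) and monocytes were sorted from the lung by flow cytometry, with 3 libraries in each of 12 groups. The groups were tissue-resident AΦ of the host (TR-AΦ, CD45.2) and CD45.2 monocytes at 4-weeks in FA and in PM2.5, and at 32-weeks TR-AΦ, bone marrow-derived AΦ of the donor (BM-AΦ, CD45.1), CD45.2 monocytes and CD45.1 monocytes, again in FA and in PM2.5. The later monocytes are told apart in the titles by a number, which was read by the key given for AΦ. Duration of exposure, the age of the mice and the time of processing cannot be told apart.

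A cell makes the products of these genes mainly while it copies its DNA, because new chromatin needs new histones in amounts matched to the DNA. Their mRNAs lack introns and a poly(A) tail, and end in a short stem-loop that SLBP, the stem-loop binding protein, holds through processing, export and translation. When replication ends the stem-loop also directs their rapid decay, whereas the replication-independent variants such as H3.3 and H2A.Z come from ordinary polyadenylated mRNAs throughout the cell cycle. Some members can also be made as longer, polyadenylated transcripts that read past the stem-loop, a form known from cells that have stopped dividing. AΦ renew themselves locally at a low rate, and monocytes as a rule leave the marrow after their last division.

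The stem-loop is shown for the members that the comparisons turn on. A search of the GENCODE M21 transcripts (GRCm38, the sequence of mm10) used a pattern built on the histone stem-loop. Its stem had 6 paired bases, from GG at the start to CT before the loop. The loop had 4 bases of the form TNTN, where N is any base. The pattern was found in 44 of the 64 members that matched this annotation (68.8%), against 61 of all 55450 genes (0.110%). Since it was chosen for histones, the contrast is no independent test. The capitals mark both arms of the stem, the lower case between them is the loop, and 5 flanking bases stand on each side.
Hist1h3b, chr13:23752815-23752840, plus strand: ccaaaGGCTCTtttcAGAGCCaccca
Hist1h2ab, chr13:23751567-23751592, plus strand: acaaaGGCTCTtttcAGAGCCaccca
Hist1h2ae, chr13:23570663-23570688, minus strand: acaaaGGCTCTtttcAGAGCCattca
Hist1h2bb, chr13:23747198-23747223, plus strand: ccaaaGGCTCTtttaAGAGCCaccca
Hist1h4c, chr13:23698084-23698109, minus strand: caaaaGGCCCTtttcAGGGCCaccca
Hist4h4, chr6:136803993-136804018, minus strand: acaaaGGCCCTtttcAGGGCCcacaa
Hist2h2ac, chr3:96220413-96220438, minus strand: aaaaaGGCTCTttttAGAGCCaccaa
The stem and loop of Hist1h3b, Hist1h2ab and Hist1h2ae was the commonest form, held by 24 members of types H1, H2A, H2B and H3. The form of Hist1h4c and Hist4h4 was held by 7 members, all H4. The remaining 20 matched models, among them those of Hist1h2bc, Hist1h2ak, Hist1h4k, Hist2h2bb, Hist1h2bn, Hist1h2af and Hist1h1b, held no match, which says only that these letters are not in the annotated transcript.

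The copies resemble each other so closely that reads can fit several. Of the 50-base stretches in a member's transcript, a median of 48.2% also occurred in another histone transcript, 29 members had over 50% of theirs shared, and 1 member had all of them shared. How the study's software shared out such reads is not stated, so the values of near-identical copies are uncertain. In addition, Hist2h2bb with Hist2h3b and Hist2h3c1 with Hist2h2aa1 were assigned to shared loci in the deposited table, and whether strand was used in counting is not stated.

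Promoters of members that moved in TR-AΦ are shown beside that of Hist4h4, with the 120 bases before the RefSeq start (GRCm38.p6) and both searched motifs in capitals. The motifs are TATAAA, read on either strand, and CCAAT, read as CCAAT or as its reverse complement ATTGG.
Hist1h3b, chr13:23752225-23752344, plus strand: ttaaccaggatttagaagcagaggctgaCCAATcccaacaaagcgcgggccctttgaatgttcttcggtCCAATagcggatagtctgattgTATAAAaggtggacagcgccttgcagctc
Hist1h2ab, chr13:23750968-23751087, plus strand: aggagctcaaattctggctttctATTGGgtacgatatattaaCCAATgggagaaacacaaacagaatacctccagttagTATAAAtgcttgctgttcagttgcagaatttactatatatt
Hist1h1b, chr13:21780626-21780745, minus strand: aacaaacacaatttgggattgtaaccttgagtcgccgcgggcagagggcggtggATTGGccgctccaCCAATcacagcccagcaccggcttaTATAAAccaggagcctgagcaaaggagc
Hist4h4, chr6:136804432-136804551, minus strand: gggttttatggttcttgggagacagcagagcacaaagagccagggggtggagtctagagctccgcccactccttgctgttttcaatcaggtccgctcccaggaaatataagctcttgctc
Over windows from 250 bases before the start to 50 after it, TATAAA occurred in 33 of 58 members with a RefSeq promoter (56.9%) and in 13.6% of all 32851 promoters. CCAAT occurred in 49 of the 58 (84.5%) and in 37.4% of all promoters. The Hist4h4 window held neither motif.

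The members lay in 4 clusters, with 52 in Hist1 on chromosome 13, 10 in Hist2 on chromosome 3, 3 in Hist3 on chromosome 11 and 1, Hist4h4, on chromosome 6. By type they were 6 genes for H1, 18 for H2A, 17 for H2B, 12 for H3 and 13 for H4, and 38 were above 0 in all 36 libraries. H4 genes held 33.3% of the summed mean FPKM, H2A 18.7%, H2B 18.1%, H1 15.4% and H3 14.6%. A few copies carried most of it. The 12 highest members made up 56.3% of the sum, 853 of 1517 FPKM. They were led by the H4 genes Hist1h4d (mean 168.8 FPKM over all libraries) and Hist1h4c (101.7 FPKM), the linker histone gene Hist1h1c (83.7 FPKM) and the H2A gene Hist1h2ak (70.3 FPKM). Then came Hist1h4h (66.2), Hist1h1e (66.0), Hist1h4k (58.8), Hist2h2bb (49.3), Hist1h2bn (48.9), Hist2h2ac (47.3), Hist1h2bc (46.9) and Hist1h1d (45.6 FPKM). At the other end, Hist1h2bq had a mean of 0.0475 FPKM and the testis linker histone gene Hist1h1t one of 0.380 FPKM.

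**Figure D1:**
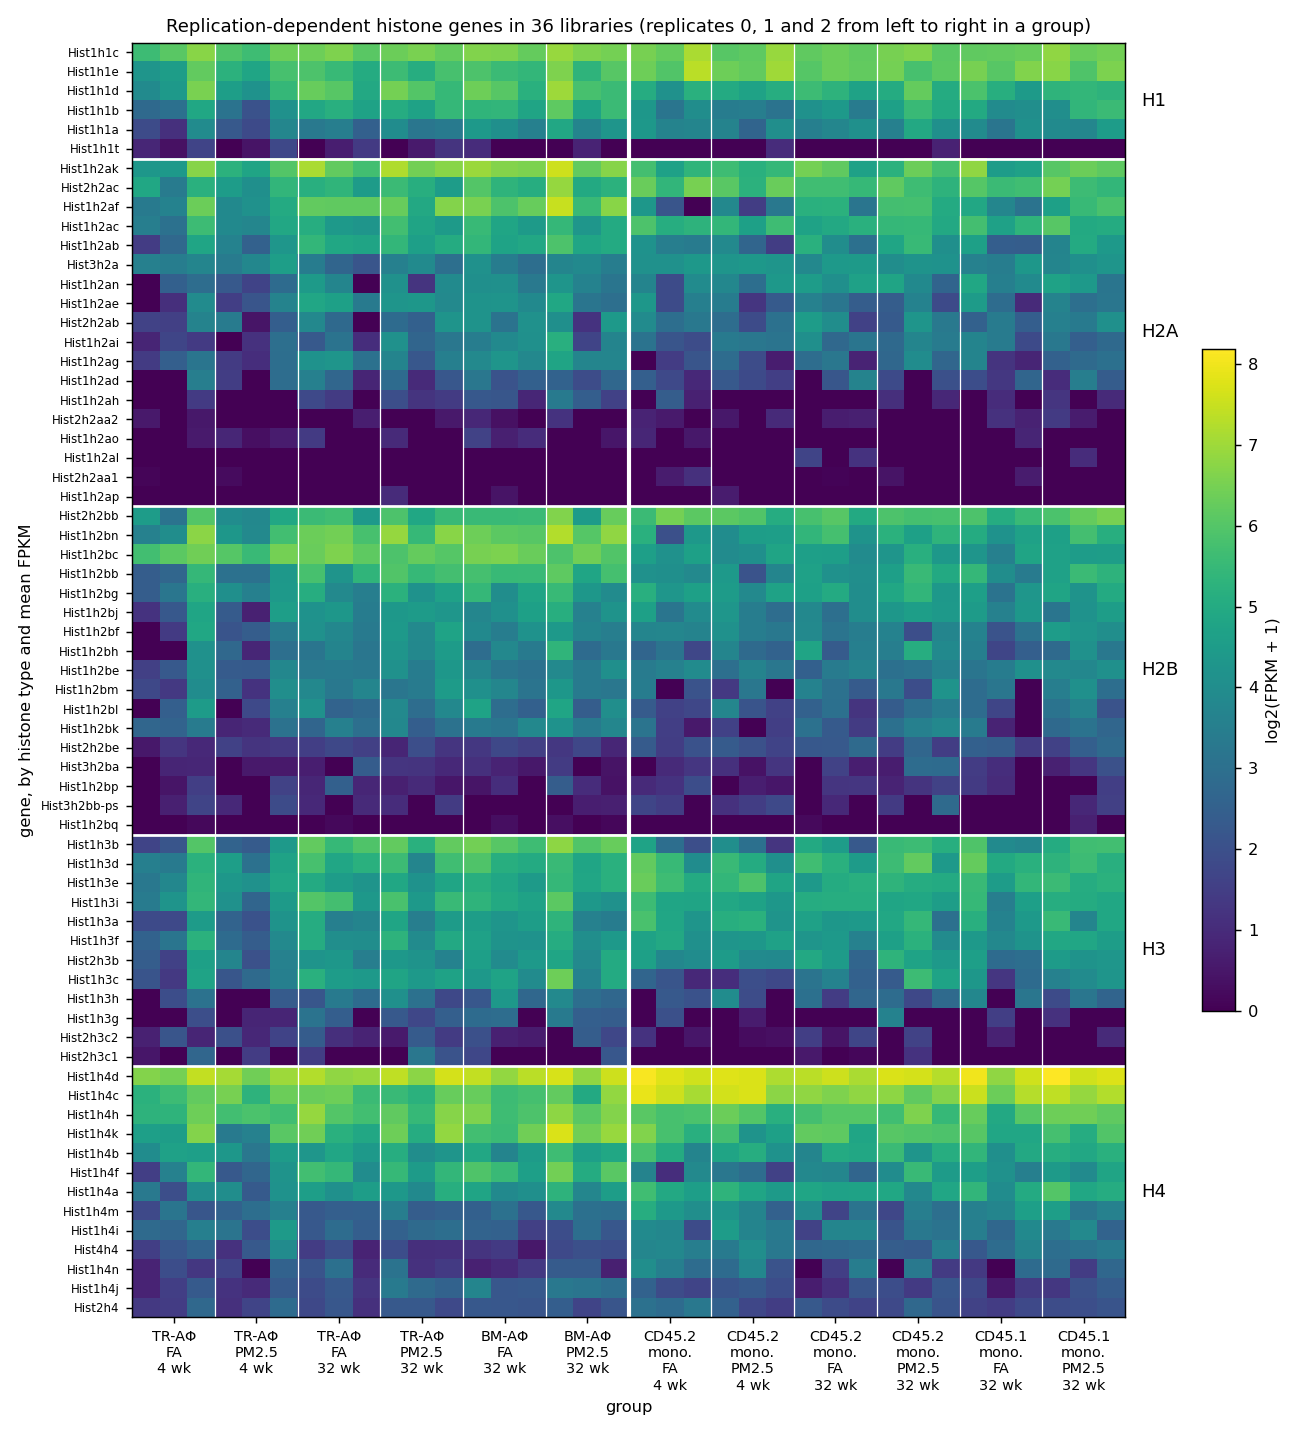
Level of each of the 66 histone genes, as log2(FPKM + 1), in the 36 libraries. Rows are genes, grouped by histone type and ordered by mean, and columns are libraries, grouped by cell type, exposure and duration. Dark columns stand out in TR-AΦ at 4-weeks for replicates 0 and 1, and Hist1h2bc is brighter in every AΦ library than in every monocyte library.

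The labelled cell types were checked against their markers. The summed FPKM of 9 AΦ markers, Marco and Car4 among them, was 6493 to 13991 in AΦ and 253 to 1577 in monocytes, and that of 10 monocyte markers, with Ly6c2 and Ccr2, was 113 to 625 in AΦ and 1850 to 6019 in monocytes. The FPKM of all genes summed to between 1839577 and 3339020 in a library, of which 217220 to 557890 belonged to 10 other RNAs without a poly(A) tail. Sequencing depth is unknown, and an exact 0 can be a failed estimate.

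In TR-AΦ the histone genes as a whole stood lower at 4-weeks than at 32-weeks in most libraries. Their summed level at 4-weeks was 564, 651 and 1991 FPKM in FA, against 843, 582 and 1352 FPKM in PM2.5. At 32-weeks it was 1969, 1550 and 1152 FPKM in FA, against 2008, 1226 and 1911 FPKM in PM2.5. The 4 lowest sums were all from 4-weeks, and both libraries numbered 2 of 4-weeks lay within the range of 32-weeks. The sums averaged 997 ± 569 FPKM over the 6 libraries of 4-weeks and 1636 ± 383 FPKM over the 6 of 32-weeks (mean ± SD). The log2 ratio was 0.85, against a within-group SD of 0.65 on that scale. Without the libraries numbered 2 of 4-weeks the mean there was 660 ± 128 FPKM over 4 libraries and the log2 ratio 1.29. BM-AΦ ranged from 1357 to 3055 FPKM, CD45.2 monocytes of 4-weeks from 1209 to 2003, CD45.2 monocytes of 32-weeks from 1132 to 1851, and CD45.1 monocytes from 919 to 1949. In bulk libraries, fewer cells that make histone mRNA and less of it in each cell cannot be told apart.

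**Figure D2:**
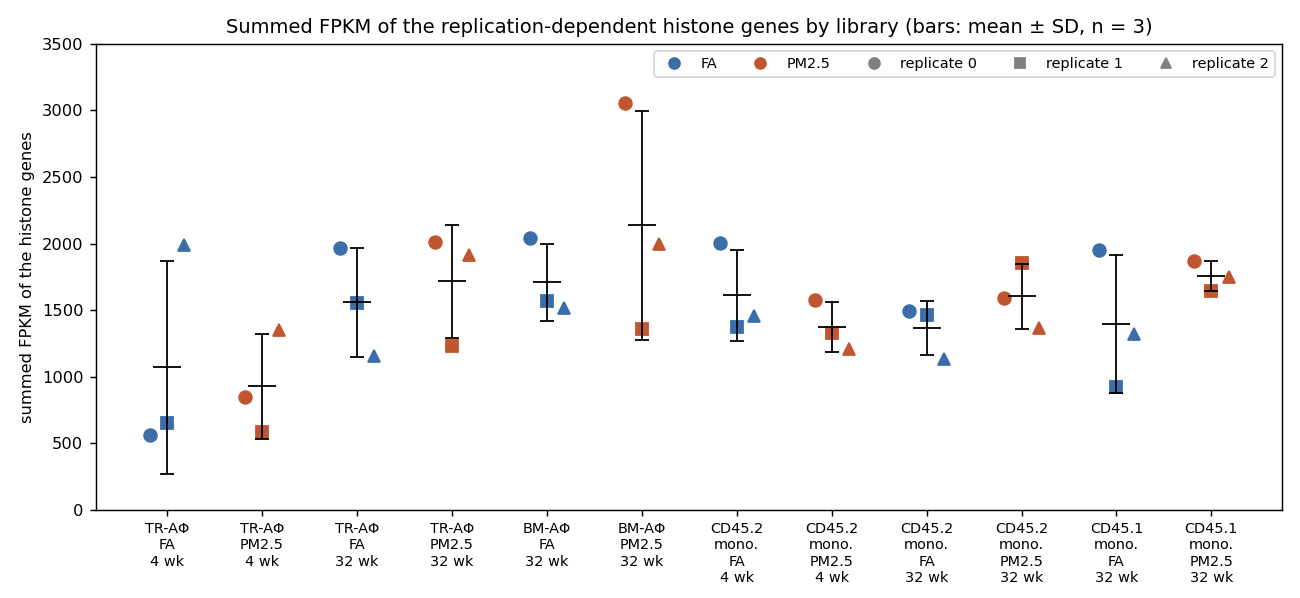
Summed FPKM of the 66 histone genes in each library (points, with shape for the replicate number and colour for exposure), with the mean and SD of each group of 3. In TR-AΦ of 4-weeks, replicate 2 reached 1991 FPKM in FA and 1352 FPKM in PM2.5, while the other 4 libraries lay between 564 and 843 FPKM.

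The 4-week TR-AΦ libraries numbered 2 stood apart from the other 4 of that population. Among members above 0, 56 of 64 (87.5%) had their highest FA value in replicate 2, as did 45.11% of all 12290 genes so compared. In PM2.5 it was 49 of 61 members (80.3%) and 48.5% of 12306 genes. At 32-weeks the pattern was different, since 5 to 19 of 63 members were highest in replicate 2 of the AΦ groups and 33 to 48 in replicate 0. Of all genes compared there, 38.5% to 43.5% were highest in replicate 2 and 24.4% to 31.0% in replicate 0. The 4-week pair of libraries numbered 2 also had higher values for markers of other cells. All 10 monocyte markers were higher in both than in each of the other 4, with sums of 590 (FA) and 625 FPKM (PM2.5) against 215 to 345. So were all 6 B cell markers, with sums of 15.4 and 34.1 against 1.68 to 3.84 FPKM. Of the T and NK cell markers 6 of 8 were higher, with sums of 11.3 and 9.19 against 0 to 0.788 FPKM, although Cd3d was listed at 0 in all 6. Of 7 neutrophil markers 3 were higher (35.2 and 68.2 against 11.99 to 23.0 FPKM, Ly6g listed at 0 in all), of 6 dendritic cell markers 3 (7.35 and 22.2 against 2.41 to 4.42 FPKM), and of 4 endothelial markers 3 (4.10 and 8.56 against 1.11 to 2.74 FPKM). No lung epithelial marker was higher in both (57.0 and 85.4 against 54.7 to 72.9 FPKM), nor was any of 6 marrow granulocyte precursor markers (0.135 and 0.0897 against 0.250 to 1.49 FPKM). Of these precursor markers, Prtn3, Camp, Ngp and Ltf were listed at 0 in all 6 libraries and could not differ. Red cell markers went the other way, at 0.916 and 1.31 FPKM against 6.91 to 63.3. The 9 AΦ markers summed to 9150 and 7923 against 6493 to 7555 FPKM. Of 33 DNA replication genes 15 were higher in both, with sums of 213 and 167 FPKM against 108 to 133. The part of these cells in the histone values was not tested.

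The CD45.2 monocyte libraries of 4-weeks numbered 2 also stood apart from the other 4 of their population. Neutrophil markers summed to 408 FPKM in FA and 1156 FPKM in PM2.5 against 71.3 to 87.7, with 4 of 7 higher in both. T and NK cell markers summed to 77.3 and 91.1 against 3.25 to 14.4 FPKM, with 4 of 8 higher in both. The 10 monocyte markers stood at 6019 and 5858 against 4423 to 5216 FPKM, with 6 higher in both. Dendritic cell markers were at 14.5 and 11.3 against 46.3 to 99.5 FPKM, with 4 of 6 lower in both. Red cell markers were at 0.456 and 0 against 7.42 to 159 FPKM, with 3 of 8 lower in both. Lung epithelial markers were at 6.06 and 3.29 against 9.12 to 11.01 FPKM. The AΦ, B cell, granulocyte precursor and endothelial marker lists had at most 2 genes higher in both, and of the B cell list 3 of 6 were lower in both. Of the 10 other RNAs without a poly(A) tail 7 were lower in both.

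In the histone genes the summed level of this monocyte pair, 1453 and 1209 FPKM, was within or below the 1328 to 2003 FPKM of the other 4, but the types were unevenly spread. H1 genes summed to 363 and 305 against 172 to 244 FPKM, H3 genes to 129 and 122 against 198 to 338 FPKM, and H4 genes to 514 and 382 against 625 to 882 FPKM. The part of the other cells in these values was not tested. The counts of histone genes between times and between cell types are also given without each pair.

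Tests across genes used limma on log2(FPKM + 1), with a mean for each group and a spread shared by the groups of the model, over genes averaging 1 FPKM or more. That kept 57 members among 12665 genes for AΦ, 54 among 12856 for monocytes and 57 among 13307 for both together. A gene passed the threshold when its p, adjusted by the Benjamini-Hochberg method over all genes tested, was under 0.05. Fold changes are log2 differences of FPKM + 1, which understates the change of low genes. The libraries of a group came from separate mice.

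Between 32 and 4-weeks in TR-AΦ, 5 of 57 histone genes tested were higher at 32-weeks and none was lower, where 2.56% of all genes were higher and 3.35% lower, 5.91% in all. The 5 encode H3 (Hist1h3b), H2A (Hist1h2ae and Hist1h2ab), H2B (Hist1h2bb) and the linker histone H1 (Hist1h1b). The H3 gene Hist1h3b had the largest change. At 4-weeks it measured 2.196, 3.47 and 62.2 FPKM in FA, against 5.11, 4.07 and 20.0 FPKM in PM2.5. At 32-weeks it measured 74.1, 43.5 and 60.5 FPKM in FA, against 73.6, 35.9 and 72.7 FPKM in PM2.5. All libraries of 32-weeks exceeded 5 of the 6 libraries of 4-weeks, and replicate 2 of FA lay inside their range. The log2 fold change was 2.69 ± 0.60 (SE, adjusted p = 0.0194 by limma).

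The other 4 genes shared that layout. Hist1h2ae, listed at 0 in 1 library, had a lowest, median and highest value of 0, 2.65 and 14.5 FPKM at 4-weeks and of 9.15, 18.8 and 27.9 FPKM at 32-weeks (log2 fold change 2.16 ± 0.59, SE, adjusted p = 0.0458 by limma). Hist1h2bb had 4.33, 7.29 and 43.2 FPKM at 4-weeks and 17.8, 47.9 and 61.5 FPKM at 32-weeks (1.92 ± 0.47, adjusted p = 0.0301 by limma). Hist1h2ab had 1.73, 8.59 and 27.1 FPKM at 4-weeks and 23.4, 30.3 and 41.8 FPKM at 32-weeks (1.78 ± 0.46, adjusted p = 0.0376 by limma). Hist1h1b had 3.21, 7.43 and 28.4 FPKM at 4-weeks and 25.1, 30.9 and 42.4 FPKM at 32-weeks (1.65 ± 0.39, adjusted p = 0.0253 by limma). In each of these genes the ranges overlapped, and the highest value of 4-weeks was replicate 2 of FA.

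**Figure D3:**
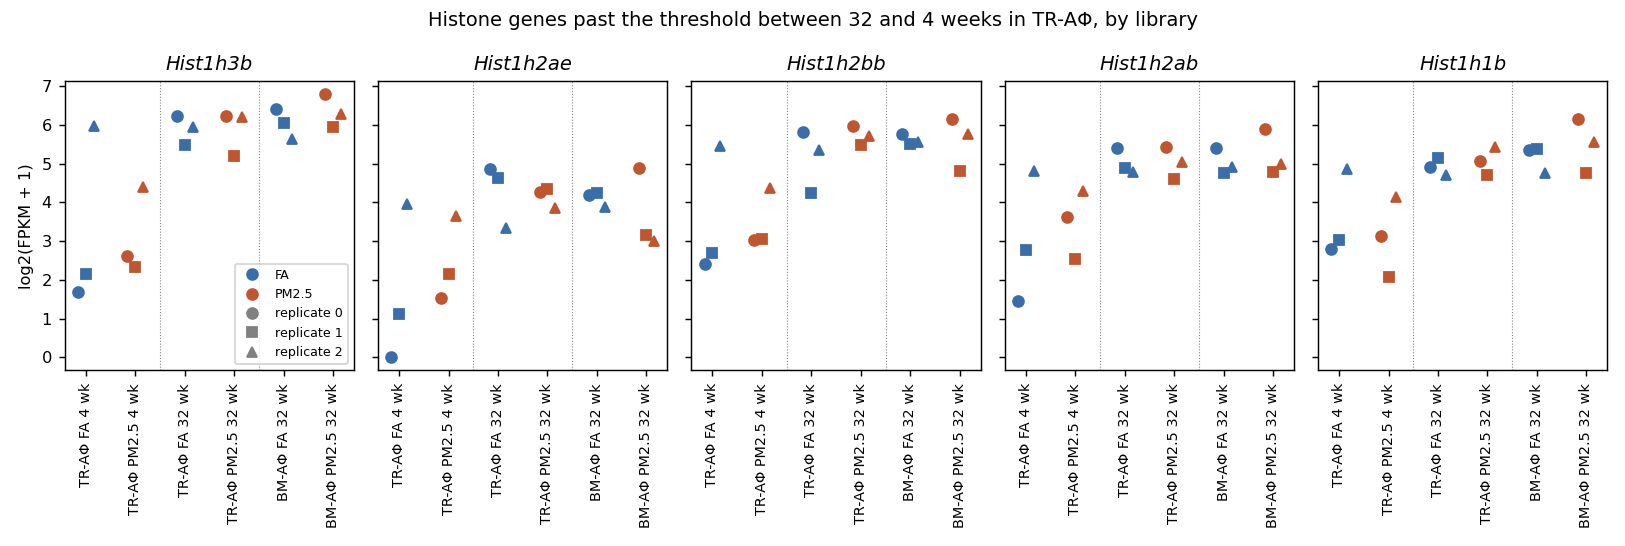
The 5 histone genes past the threshold between 32 and 4-weeks in TR-AΦ, as log2(FPKM + 1) in each TR-AΦ and BM-AΦ library, with shape for the replicate number and colour for exposure. In every panel replicate 2 of FA at 4-weeks (blue triangle) sits at or near the level of 32-weeks, and replicates 0 and 1 of 4-weeks lie lowest.

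The wider set leaned the same way without passing the threshold. Of the 57 genes tested, 53 had a fold change above 0, as did 53.7% of all genes, and 31 an unadjusted p under 0.05, a p that 22.3% of all genes had. The median log2 fold change was 0.94, against 0.03 over all genes. By type the medians were 1.23 for H3, 1.08 for H2A, 1.06 for H2B, 0.84 for H1 and 0.30 for H4. Among the most abundant members, Hist1h2bn had 1.57 ± 0.49 (SE) and Hist1h2ak 1.33 ± 0.40, while Hist1h4d had 0.30 ± 0.22, Hist1h1c 0.30 ± 0.18, Hist1h2bc 0.16 ± 0.16 and Hist1h4c 0.02 ± 0.33, none past the threshold. Members were also classed by where their locus in the deposited table ends. The 14 genes whose locus runs more than 100 bases past the stem-loop had a median of 0.31. The 24 that end within 100 bases of it had 1.04, and the 19 without a stem-loop match had 1.17. GENCODE M21 transcripts would class several of these 24 otherwise, as running over 100 bases past it. They include Hist1h1d (28 bases past it in the deposited locus, 4884 in M21), Hist1h4d (25 and 770), Hist1h4c (29 and 454) and Hist1h2ae (6 and 151). Hist1h1e, Hist1h2ac, Hist1h2bg and Hist1h3d are others. Hist1h4b (239 and 28) goes the other way. The classes therefore describe the deposited locus and not the ends of transcripts. Whether longer transcripts were made was not tested.

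How many genes passed depended strongly on single libraries. Leaving out replicate 2 of FA at 4-weeks raised the number from 5 to 21. Leaving out both libraries numbered 2 of the 4-week TR-AΦ raised it to 28, and leaving out that number in every group to 20, all higher at 32-weeks. The share of all genes past the threshold under these settings is not given here, so the rise cannot be called particular to histone genes. It was 0 without replicate 1 of either exposure at 4-weeks. It was 1 without replicate 0 of FA at 4-weeks or without replicate 0 or 2 of PM2.5 at 32-weeks, and 2 without replicate 0 or 1 of FA at 32-weeks. With FA or PM2.5 libraries alone it was 0. With TPM scaling Hist1h3b and Hist1h1b kept the threshold, and Hist1h2ae, Hist1h2bb and Hist1h2ab lost it.

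Few genes that act with histones passed the threshold. Of 24 DNA replication genes tested in TR-AΦ, 2 were higher at 32-weeks and none lower. They were Fen1, the flap endonuclease of lagging-strand synthesis (0.71 ± 0.18, SE, adjusted p = 0.0384 by limma), and Pola2, a subunit of DNA polymerase alpha (0.39 ± 0.09, adjusted p = 0.0254 by limma). Neither passed after TPM scaling. None passed among 14 genes for histone transcription and 3′ processing, 12 chaperones and importers, 9 replication-independent variants, 19 genes of mitosis and G2 and 10 other RNAs without a poly(A) tail. Slbp had 0.07 ± 0.12 (SE) and Npat, which activates histone transcription in S phase, 0.11 ± 0.18. Casp8ap2, a partner of Npat at histone loci, had 0.00 ± 0.16 and Pcna, the sliding clamp of DNA polymerases, -0.03 ± 0.16. The mitotic markers Mki67 and Top2a had 0.38 ± 0.26 and 0.88 ± 0.41. H2afz, for H2A.Z, had -0.14 ± 0.24 and H3f3b, for H3.3, -0.46 ± 0.18. Without replicate 2 of any group, 3 DNA replication genes, 1 mitosis gene (Top2a, 0.88) and 1 variant gene passed, all higher at 32-weeks. Without it in TR-AΦ of 4-weeks alone, 5 replication and 2 mitosis genes passed, all higher. Of the marker lists, 1 of 9 AΦ markers was higher and 1 of 10 monocyte markers lower at 32-weeks, and none of the others passed.

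In CD45.2 monocytes the same interval split the histone genes. Of 54 tested, 2 were higher at 32-weeks and 2 lower, where 7.06% of all genes were higher and 7.83% lower. The H2A gene Hist1h2af had a lowest, median and highest value of 0, 6.14 and 19.2 FPKM at 4-weeks and 8.13, 36.4 and 53.1 FPKM at 32-weeks (log2 fold change 2.51 ± 0.65, SE, adjusted p = 0.0180 by limma). The H3 gene Hist1h3c went from 0.922, 2.67 and 5.41 FPKM to 4.08, 9.61 and 48.2 FPKM (1.90 ± 0.56, adjusted p = 0.0333 by limma). For both, the ranges overlapped. The lower genes encode H4. Hist4h4 measured 8.67, 11.4 and 15.3 FPKM at 4-weeks and 4.08, 5.74 and 10.5 FPKM at 32-weeks (-0.84 ± 0.24, adjusted p = 0.0314 by limma). Hist1h4c measured 108, 192 and 239 FPKM and then 71.6, 105 and 112 FPKM (-0.81 ± 0.23, adjusted p = 0.0302 by limma), again with overlapping ranges. Over the 54 genes the median was 0.15, 31 lay above 0, as did 44.2% of all genes, and 14 had an unadjusted p under 0.05, a p that 27.4% of all genes had.

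Markers of other cells moved over the same interval. Of 6 neutrophil markers tested 2 were lower at 32-weeks, with a median of -1.71, as was 1 of 2 T and NK cell markers, with a median of -2.37. The monocyte list had 11 entries, since Itgam stands under a pair of gene IDs, and 4 of them were lower, namely Treml4 (-2.53), Spn (-2.03), Ace (-1.74) and Nr4a1 (-1.27). Of 7 AΦ markers 3 were higher and 2 lower, and of 4 endothelial markers 2 were higher and 1 lower. Without the 4-week monocyte pair numbered 2 the counts were 1 neutrophil marker, 0 T and NK cell markers, 4 monocyte entries, 3 higher and 1 lower AΦ markers, and 2 higher and 1 lower endothelial markers. The part of these cells in the histone values was not tested.

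These calls rested on few libraries as well. Without the libraries numbered 2 of the 4-week monocytes the total of 4 became 1, the lower Hist1h4c. Hist1h2af (2.07, adjusted p = 0.0526 by limma), Hist4h4 (-0.96, adjusted p = 0.0541 by limma) and Hist1h3c (1.70, adjusted p = 0.127 by limma) kept their direction and missed the threshold. With TPM or quantile scaling 3 were higher and 1 lower. The total of 4 became 7 without replicate 2 of FA at 32-weeks, 2 without replicate 0 and 1 without replicate 1 of that group, 1 without replicate 1 of FA at 4-weeks, 2 without replicate 1 of PM2.5 at 4-weeks and 1 without replicate 1 of PM2.5 at 32-weeks. Among genes that act with histones, Pcna was lower at 32-weeks (-0.66 ± 0.11, SE, adjusted p = 0.00165 by limma), from 65.0 to 81.5 FPKM in the 6 libraries of 4-weeks to 34.2 to 51.9 FPKM, with no overlap. Mcm7, Mcm6 and Mcm3, subunits of the replicative helicase, were higher (0.64, 0.59 and 0.52). The importer gene Ipo4 (0.83), the cyclin A gene Ccna2 (1.20) and the non-coding RNAs Rny3 and Vaultrc5 were also higher. Slbp (-0.47), H3f3b (-0.59) and H2afj (-0.49) were lower, but none of these 3 passed with TPM or quantile scaling or without replicate 2 of every group. Without the 4-week monocyte pair, Pcna, Mcm7, Mcm3, Ipo4 and Rny3 passed, and Mcm6, Ccna2, Vaultrc5, Slbp, H3f3b and H2afj did not.

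The difference between the interval's effects in the 2 cell types was itself tested. Of the 57 histone genes none passed, where 7.88% of all genes did, 3.53% in the direction of TR-AΦ and 4.35% in that of the monocytes. By unadjusted p 12 were under 0.05, as were 20.3% of all genes, and 49 of the 57 estimates were more positive in TR-AΦ, as were 54.0% of all genes, with a median of 0.73 against 0.04 over all genes. The smallest adjusted p was 0.0679, for the H4 gene Hist1h4j (1.35 ± 0.45, SE, by limma). Without both libraries numbered 2 of the 4-week TR-AΦ the count was 13, and without those of the 4-week monocytes 0. Without replicate 2 of FA at 4-weeks in TR-AΦ it was 8, and without replicate 2 of PM2.5 in TR-AΦ at 4-weeks, or of FA in CD45.2 monocytes at 32-weeks, it was 2. Shares of all genes with these libraries left out are not given here, so these counts have no background beside them. Of the accompanying genes, Pcna (0.62) and Mcm5 passed in the direction of TR-AΦ, and Ipo4 (-0.74) and Rny3 in that of the monocytes. All 4 lost the threshold without the monocyte pair and kept it without the TR-AΦ pair.

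The level of individual copies also differed between the cell types. TR-AΦ had 2 histone genes higher and 18 lower than CD45.2 monocytes at 4-weeks, of 57 tested, where 22.6% of all genes were higher and 25.5% lower. At 32-weeks, with 12 AΦ and 12 monocyte libraries of both origins, 17 were higher and 5 lower, where 31.6% of all genes were higher and 29.4% lower. The shares of histone genes past the threshold lay near or below those of all genes, apart from the 18 lower genes at 4-weeks. The AΦ and monocytes of 1 mouse may both enter a comparison, since the labels do not name the animal. At 32-weeks the CD45.1 and CD45.2 cells of 1 mouse may also stand on the same side. The tests took all libraries as independent, so their p can be too small. The summed level had a log2 ratio of AΦ to monocytes of -0.73 at 4-weeks, with a within-group SD of 0.61, and of 0.20 at 32-weeks. At 4-weeks it was -1.17 without the TR-AΦ pair numbered 2, -0.81 without the monocyte pair and -1.25 without both.

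Hist1h2bc, an H2B gene whose annotated transcript holds no stem-loop match, had the smallest adjusted p of all members at both times. At 4-weeks its lowest, median and highest values were 45.8, 66.2 and 87.5 FPKM in TR-AΦ and 14.3, 20.1 and 26.2 FPKM in monocytes (1.68 ± 0.21, SE, adjusted p = 1.05e-07 by limma). At 32-weeks they were 58.9, 76.7 and 95.6 FPKM in AΦ and 10.8, 22.2 and 35.0 FPKM in monocytes (1.804 ± 0.15, adjusted p = 2.18e-11 by limma). The ranges did not overlap at either time, and all other settings tried kept the call. Hist1h2af, for H2A, was the only other member higher at both times (1.88 ± 0.60 and 1.42 ± 0.42). It lost the call at 4-weeks when the libraries numbered 2 of TR-AΦ or of the monocytes were left out, and 79.7% of its 50-base stretches occur in other histone transcripts.

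The members lower in AΦ at both times were the H4 genes Hist1h4c and Hist4h4, the H1 gene Hist1h1e and the H2B gene Hist2h2be. Hist1h4c measured 36.7, 60.8 and 90.2 FPKM in TR-AΦ at 4-weeks and 108, 192 and 239 FPKM in monocytes (-1.58 ± 0.29, SE, adjusted p = 4.96e-05 by limma), without overlap. At 32-weeks it measured 30.5, 63.6 and 114 FPKM in AΦ and 71.6, 112 and 182 FPKM in monocytes (-0.96 ± 0.21, adjusted p = 0.000219 by limma), with overlap. Hist4h4, alone in its cluster, measured 0.446, 1.70 and 2.99 FPKM in AΦ at 32-weeks and 3.81, 6.45 and 11.6 FPKM in monocytes (-1.47 ± 0.23, adjusted p = 4.15e-06 by limma), without overlap. At 4-weeks its values were 1.27, 3.78 and 14.4 FPKM in TR-AΦ and 8.67, 11.4 and 15.3 FPKM in monocytes (-1.33 ± 0.33, adjusted p = 0.00145 by limma). Hist1h1e had -1.39 ± 0.29 at 4-weeks and -0.64 ± 0.20 at 32-weeks, where TPM scaling ended the call. Hist2h2be had -0.84 ± 0.25 and -0.73 ± 0.18.

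At 4-weeks the largest difference was that of Hist1h3a, for H3. It measured 2.53, 4.12 and 21.5 FPKM in TR-AΦ and 17.7, 30.7 and 56.3 FPKM in monocytes (-2.08 ± 0.50, SE, adjusted p = 0.00112 by limma), with overlap. The H4 genes Hist1h4n (-1.82) and Hist1h4a (-1.67), the H2B gene Hist2h2bb (-1.50) and the H2A gene Hist1h2ai (-1.47) followed. Hist1h4a did not overlap, at 2.89 to 17.0 FPKM in TR-AΦ and 21.1 to 49.97 FPKM in monocytes. By type the 18 lower genes were 6 for H4, 4 for H3, 3 for H2A, 3 for H2B and 2 for H1. Of the most abundant, Hist1h4d (-0.86 ± 0.21) and Hist2h2ac (-1.39 ± 0.34) were among them. Without replicate 2 of every group 31 were lower and 1 higher, without it in TR-AΦ of 4-weeks 32 were lower and 1 higher, without it in monocytes of 4-weeks 19 were lower and 1 higher, and with PM2.5 libraries alone 7 were lower and 1 higher. How the share of all genes moved under these settings is not given here.

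At 32-weeks the 17 higher genes were 6 for H2A, 4 for H2B, 4 for H3, 2 for H4 and 1 for H1. The H2B gene Hist1h2bn measured 44.2, 81.5 and 149 FPKM in AΦ and 17.2, 33.0 and 53.5 FPKM in monocytes (1.36 ± 0.34, SE, adjusted p = 0.00114 by limma), and the ranges overlapped. Its neighbour Hist1h2ak, for H2A, had 0.90 ± 0.29. Hist1h3g (1.65) and Hist1h2ah (1.27) were also higher, listed at 0 in 9 and 7 of 12 monocyte libraries and in 2 and 1 of 12 AΦ libraries. Hist1h2ag (1.21) completed the 6 largest. The other lower member was Hist3h2a (-0.69). Of the genes that changed with time in TR-AΦ, Hist1h3b (1.19), Hist1h2ae (1.12), Hist1h2ab (0.97) and Hist1h2bb (0.81) were higher in AΦ than in monocytes at 32-weeks, while at 4-weeks none of these passed. They were chosen by TR-AΦ values that enter both of these comparisons, so this follows in part from the choice. With PM2.5 libraries alone 5 were higher and 3 lower.

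**Figure D4:**
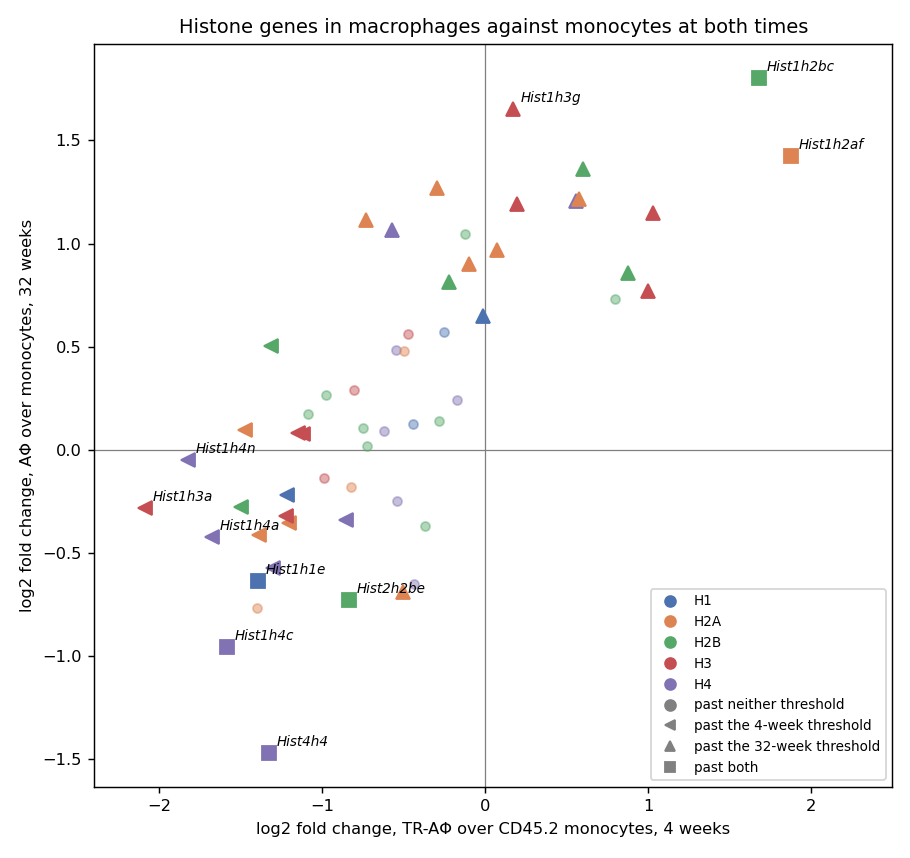
Log2 fold change of AΦ over monocytes for the 57 histone genes tested, at 4-weeks (x axis) and at 32-weeks (y axis), with colour for the histone type and shape for the threshold passed. Hist1h2bc and Hist1h2af lie at the upper right past both thresholds, Hist4h4, Hist1h4c, Hist1h1e and Hist2h2be at the lower left, and no gene passed both in opposite directions.

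Rescaling the libraries to TPM, a unit with the same sum in each library, moved the median of all genes from -0.02 to 0.17 at 4-weeks and from 0.02 to 0.21 at 32-weeks. The histone counts became 3 higher and 12 lower, and 24 higher and 4 lower. The shares of all genes after rescaling are not given here. Neither these counts nor the rescaled list counts below can therefore be set against the shares above.

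Of 16 mitosis and G2 genes tested, 11 were higher in AΦ at 4-weeks and 14 at 32-weeks and none was lower, where 22.6% and 31.6% of all genes were higher, with Mki67 at 1.02 (adjusted p = 0.00281 by limma) and 0.86. Ccnb2, the cyclin B2 gene, was at 2.32 and 1.58, Bub1b and Ccna2 were also higher, and Top2a passed at 32-weeks (0.90) and not at 4-weeks (0.57). Of 22 DNA replication genes, 7 were higher at 4-weeks and 3 lower, and 15 were higher at 32-weeks and none lower. With TPM scaling the mitosis list had 12 and 15 higher, the replication list 9 and 17 higher, and none was lower. E2f1, which activates S-phase genes, was at 0.88 and 1.32, Tk1, for thymidine kinase, was higher at both times, and Prim2 at 4-weeks and Rrm2 at 32-weeks. Pcna was lower at 4-weeks (-0.55) with Rpa2 and Mcm5, and at 32-weeks had 0.13 without passing. Without replicate 2 of every group the mitosis list had 7 higher and 1 lower at 4-weeks and 10 higher at 32-weeks, and the replication list 2 higher and 2 lower, and 9 higher. Without it in TR-AΦ of 4-weeks the 4-week counts were 8 higher and 1 lower for mitosis and 4 higher and 4 lower for replication, and without it in the monocytes 9 higher, and 4 higher and 1 lower.

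Genes that handle histone mRNA went both ways. Slbp was lower in TR-AΦ at 4-weeks, at 14.1 to 22.4 FPKM against 25.7 to 37.9 FPKM in monocytes (-0.77 ± 0.13, SE, adjusted p = 1.82e-05 by limma), without overlap. At 32-weeks it had -0.26 (adjusted p = 0.0163 by limma), and TPM scaling turned that to 0.01. Of 14 genes in the list, Eri1, which trims histone mRNA ends, and Casp8ap2 (-0.61) were also lower at 4-weeks and Coil was higher. At 32-weeks Lsm10, of the U7 particle that cleaves histone pre-mRNA, Ncbp2 and Cstf2 led 4 higher genes, and Casp8ap2 (-0.53) and Eri1 were lower with Slbp. With TPM scaling 4 were higher and 1 lower at 4-weeks, and 8 higher and none lower at 32-weeks. Without the TR-AΦ pair numbered 2 of 4-weeks, 1 was higher and 4 lower at that time, Slbp at -0.92 and Npat (-0.44) among them, and without the monocyte pair 2 were higher and 2 lower, with Slbp at -0.83 and Casp8ap2 and Coil no longer past the threshold. With all libraries Npat had -0.31 at 4-weeks and -0.08 at 32-weeks and passed at neither.

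The replication-independent variants that passed were on the monocyte side in FPKM, and fewer of them were after TPM scaling. Of 9 tested, 4 were lower in AΦ at 4-weeks and 6 at 32-weeks, where 25.5% and 29.4% of all genes were lower. None was higher. H3f3a, for H3.3, measured 104 to 165 FPKM in TR-AΦ of 4-weeks and 323 to 469 FPKM in monocytes (-1.53 ± 0.18, SE, adjusted p = 4.78e-08 by limma). H2afy, for macroH2A, followed at -1.24 and -0.85. H3f3b, at 343 to 823 FPKM in TR-AΦ of 4-weeks, had -0.57 and -0.40, and neither passed with TPM or quantile scaling. H2afj was lower at both times (-0.59 and -0.36) and Cenpa, the centromeric H3, at 32-weeks (-0.76). H2afz had -0.25 and -0.22 and passed at neither time. TPM scaling left 2 lower at 4-weeks, and 3 lower and 1 higher at 32-weeks. Without the TR-AΦ pair numbered 2, 4 were lower at 4-weeks, with H3f3a at -1.68 and H2afy at -1.33. Without the monocyte pair 3 were lower, with H3f3a at -1.38 and H2afy at -1.28, and H3f3b (-0.36) missed the threshold. Of the chaperones and importers, Ipo4 (1.18 and 0.65) was higher and Nasp, which carries H3 and H4, lower (-0.56 and -0.30) at both times, and Asf1b (0.88) and Rbbp7 (0.56) were among 5 higher genes at 32-weeks. Nasp lost its call at both times with TPM scaling. At 4-weeks Ipo4 and Nasp kept theirs without either pair, at 1.21 and -0.55 without that of TR-AΦ and at 1.10 and -0.57 without that of the monocytes. The RNAs without a poly(A) tail had 3 higher and 2 lower at 4-weeks, and 2 higher and 4 lower at 32-weeks.

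Exposure to PM2.5 moved no histone gene past the threshold in any of the 6 populations. In TR-AΦ 0 of 57 passed at 4-weeks and at 32-weeks, where 0.0079% and 0% of all genes did, and in BM-AΦ 0 of 57 passed, where 0.0158% did. In monocytes 0 of 54 passed in CD45.2 cells of 4-weeks (0.00778% of all genes), in CD45.1 cells (0%) and in CD45.2 cells of 32-weeks (0%). By unadjusted p under 0.05 the counts of members were 1, 1, 0, 1, 1 and 2 in that order, all by limma, where 2.94%, 3.13%, 2.05%, 2.12%, 4.74% and 4.25% of all genes had such a p. The medians were 0.07, 0.17, 0.23, -0.19, 0.43 and 0.21. In CD45.1 monocytes 48 of 54 estimates were above 0 (53.5% of all genes), in CD45.2 monocytes of 4-weeks 17 of 54 (46.7%) and of 32-weeks 35 of 54 (52.9%), and in the AΦ groups 31, 41 and 42 of 57 (44.2%, 49.2% and 45.5%).

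The members with an unadjusted p under 0.05, chosen after their values were seen, show the size of spread behind these counts. Hist2h4, for H4, in CD45.2 monocytes of 4-weeks measured 7.25, 6.32 and 8.75 FPKM in FA, against 4.86, 2.37 and 1.77 FPKM in PM2.5, without overlap (-1.14 ± 0.28, SE, adjusted p = 1 by limma). Hist1h2bf, for H2B, in CD45.1 monocytes measured 11.4, 3.27 and 7.45 FPKM in FA, against 21.9, 18.1 and 15.3 FPKM in PM2.5, without overlap (1.33 ± 0.44, adjusted p = 0.946 by limma). Hist1h4j in TR-AΦ of 32-weeks measured 2.66, 3.82 and 1.40 FPKM in FA, against 9.21, 6.05 and 4.92 FPKM in PM2.5, without overlap (1.11 ± 0.47, adjusted p = 1 by limma). Hist1h2bk in TR-AΦ of 4-weeks measured 5.50, 5.06 and 9.58 FPKM in FA, against 0.789, 0.978 and 7.44 FPKM in PM2.5, where replicate 2 overlapped (-1.27 ± 0.51). In CD45.2 monocytes of 32-weeks Hist1h1b measured 16.5, 20.5 and 9.56 FPKM in FA, against 23.9, 46.0 and 30.1 FPKM in PM2.5 (1.06 ± 0.43), without overlap. Hist3h2ba there measured 0, 2.04 and 0.619 FPKM in FA, against 0.558, 6.46 and 6.29 FPKM in PM2.5 (1.37 ± 0.63), with overlap.

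**Figure D5:**
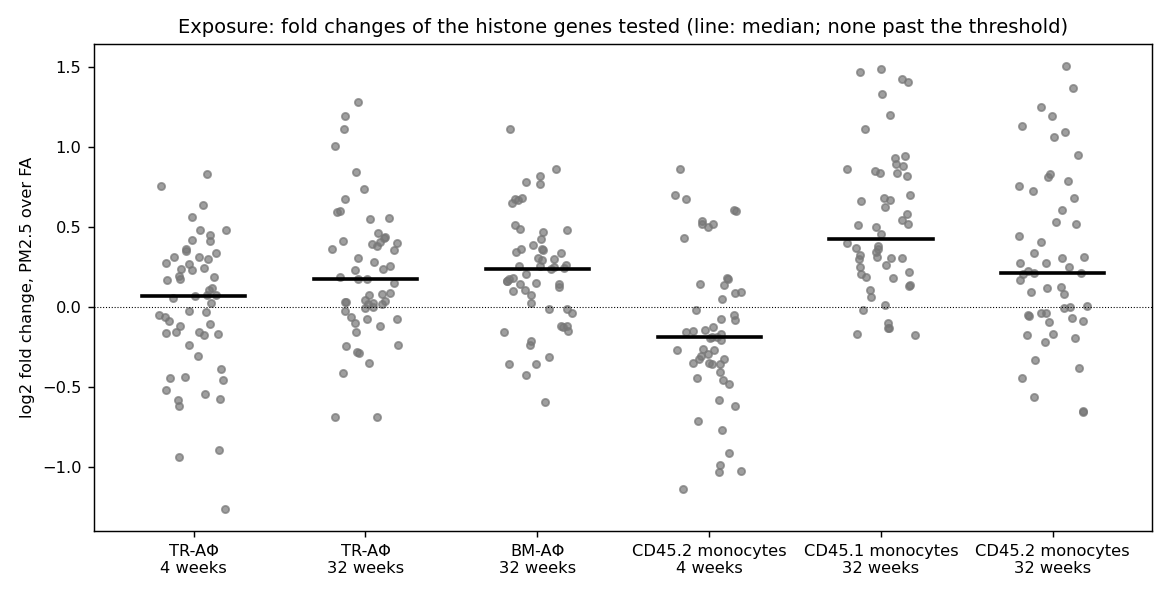
Log2 fold change of PM2.5 over FA for each histone gene tested (points) in the 6 populations, with the median as a line. Medians run from -0.19 in CD45.2 monocytes of 4-weeks to 0.43 in CD45.1 monocytes of 32-weeks, and no point passed the threshold.

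The effect of exposure was also compared between populations. Its difference between 32 and 4-weeks in TR-AΦ and between BM-AΦ and TR-AΦ was past the threshold for 0 of 57 members each, where 0.0079% and 0.0158% of all genes passed, and 0 members had an unadjusted p under 0.05 in either, as 3.0% and 1.89% of all genes did. No gene of the histone processing, chaperone, variant, replication or mitosis lists passed in any of these comparisons or in those of exposure.

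Origin left no histone gene past the threshold. BM-AΦ and TR-AΦ of 32-weeks differed in 0 of 57 members, where 0.316% of all genes differed, and 0 members had an unadjusted p under 0.05, with limma, as 944 of all 12665 genes did (7.45%). The median was 0.21, from -0.55 to 0.91. CD45.1 and CD45.2 monocytes of 32-weeks differed in 0 of 54, where 0.669% of all genes differed, 0.0778% higher and 0.591% lower in CD45.1 cells. By unadjusted p 2 members were under 0.05, as were 9.59% of all genes. They were Hist1h2be (0.52) and Hist1h4m (1.05), named here for that reason. The 5 genes that changed with time in TR-AΦ stood in BM-AΦ near the level of TR-AΦ of the same time. Hist1h3b, for one, had a lowest, median and highest value of 49.0, 70.7 and 110 FPKM in BM-AΦ and 35.9, 66.6 and 74.1 FPKM in TR-AΦ, with overlap.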

How the data were processed

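Per the labels and the study's methods, the authors sequenced RNA of sorted lung cells prepared with a SMART-Seq Stranded kit, trimmed the reads with TrimGalore, aligned them to mm10 with STAR and computed FPKM per GENCODE gene with Cufflinks. The deposited table holds these FPKM values for 36 libraries, with no counts, so depth and counting error are unknown. Groups were taken from the sample titles. FPKM were transformed to log2(FPKM + 1) and fitted with limma 3.58.1 (R 4.3.3; lmFit with 1 mean per group, eBayes with trend) over genes averaging 1 FPKM or more, with libraries unpaired, in 15 comparisons. The study's Cuffdiff test needs alignments and was not run. The script was tested on simulated data. Annotation came from GENCODE M21 and RefSeq, with Python 3.11.15 and matplotlib 3.10.9.

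The members and gene lists were chosen with earlier results of these data known. Genes named are the 12 members with the highest mean, up to 6 members past the threshold per comparison and direction by size of change, up to 3 such genes of each fixed list, and always Slbp, Npat, Casp8ap2, Mki67, Top2a, Pcna, H2afz and H3f3b. Alternatives were a pseudocount of 0.1, no filter, TPM and quantile scaling, other samples in the model, 1 exposure alone, a replicate block and leaving out each library. Those without the libraries numbered 2, with a term for them, with the number read as an animal, and the rescaled list counts were added after seeing the data. Marker lists are reported where the 4-week libraries are described.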

Additional observations from a re-analysis of the deposited data

How the results depend on the processing

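Of 28 calls on named histone genes under 801 alternatives, 686 kept direction and threshold, 115 lost the threshold and 0 reversed. The losses lay mostly in the calls with time. In TR-AΦ each was lost in 5 (Hist1h3b) to 15 (Hist1h2ae) of 24 alternatives. In CD45.2 monocytes it was 4 (Hist1h2af) to 14 (Hist1h3c) of 24. Between AΦ and monocytes it was at most 6 of 25 at 4-weeks and 2 of 35 at 32-weeks. The genes were chosen for passing in these same libraries, so few reversals could occur. Exposure and its differences between populations had 0 histone genes past the threshold under all 116 alternatives for 8 results, and BM-AΦ against TR-AΦ under all 22. In the main fits at most 0.0158% of all genes passed in those 8 results, and 0.316% between BM-AΦ and TR-AΦ. With so few calls over all genes, these counts of 0 do not show an absence of effect. The summed log2 ratios ranged over the alternatives from 0.84 to 1.35 (TR-AΦ, 32 over 4-weeks), from -1.25 to -0.41 (AΦ over monocytes, 4-weeks) and from 0.19 to 0.49 (32-weeks).

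Counts of histone genes past the threshold moved by over 1.5 times as follows, and the cause was not tested. The share of all genes under each setting is not given, so a changed count need not be particular to histone genes. Between 32 and 4-weeks in TR-AΦ (5) they were 3 without a filter, 2 with TPM, 0 when only the groups compared were fitted, 0 with FA alone, 0 with PM2.5 alone, 0 to 21 leaving out 1 library, 20 without any library numbered 2, 28 without those of the 4-week TR-AΦ and 30 with a term for replicate 2 within time. In CD45.2 monocytes (4) they were 2 without a filter, 1 with FA alone, 0 with PM2.5 alone, 1 without the libraries numbered 2 of the 4-week monocytes and 1 to 7 leaving out 1 library. Between AΦ and monocytes they were 8 with PM2.5 alone at 4-weeks (20) and 8 at 32-weeks (22), and 32 and 33 at 4-weeks without the libraries numbered 2 of all groups or of TR-AΦ. Leaving out 1 library kept these 2 counts within 1.5 times, at 18 to 30 (4-weeks) and 18 to 26 (32-weeks). For cell type by time (0) they were 1 with quantile scaling, 7 without any library numbered 2, 13 without those of the 4-week TR-AΦ, 3 with a term for replicate 2, and 0 to 8 leaving out 1 library. Where a group kept 1 exposure or 2 libraries, the spread came from all groups of the model.

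A replicate block changed the count to 11 (TR-AΦ, 32 against 4-weeks), 6 (CD45.2 monocytes), 22 and 24 (AΦ against monocytes) and 3 (cell type by time), and with the number read as an animal to 1 for CD45.1 against CD45.2 monocytes. The numbers were not taken as pairs, since correlations of same-numbered deviations ran from -0.087 to 0.209. In addition, 0 of 20 pairs of groups had all of theirs over 0.1. On the other side, 25 of 36 libraries correlated best with their own number among the 3 of the partner group. That is more often than an even choice would give, and what the libraries of 1 number share was not tested. The unknown depth and the 3 libraries per group limit every call.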
